A study of Mus musculus with 6 samples.

Results

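The calcitonin-family receptors, their receptor activity-modifying proteins (RAMPs) and 2 of their peptide ligands are described here across 6 RNA sequencing libraries of mouse bone marrow. The genes are Ramp1, Ramp2, Ramp3, Calcrl, Calcr, Adm and Calca, taken by symbol, and all 7 were found once among the 23359 gene symbols. Ramp3 was chosen by its measured FPKM, known to differ between the groups, so its difference is given as a description without a test. The other genes were chosen as its family partners, not by their values. The study compared Gab2 +/+ samples (WT, libraries A, B and C) with Gab2 -/- samples (NULL, libraries A, B and C), in a series on the adaptor GAB2 in transformation by BCR-ABL1. Not given in the sources used here were strain, age, sex, treatment, the kind of Gab2 mutation and any enrichment of cells. As no animals or cultures are named, the p-values reflect the spread among these libraries alone, and that spread may be technical.

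CALCRL and CALCR are G-protein-coupled receptors of class B, and RAMPs are small proteins with a single membrane span that pair with them. CALCRL with RAMP1 is the receptor for calcitonin gene-related peptide, whose main form is encoded by Calca, and CALCRL with RAMP2 or RAMP3 is a receptor for adrenomedullin, encoded by Adm. CALCR alone binds calcitonin and with a RAMP binds amylin. These receptors signal mainly through the stimulatory G protein and cyclic AMP, and in marrow they are best known from blood vessels, nerve-derived peptides and bone-resorbing osteoclasts.

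In the WT libraries Ramp1 and Ramp2 were present at like low levels and Ramp3 was close to 0, whereas in the NULL libraries Ramp3 was by far the most abundant RAMP transcript, Ramp1 was higher and Ramp2 was lower. Calcrl, the receptor that all 3 RAMPs can pair with, rose from 8.24 ± 0.900 to 14.0 ± 0.936 FPKM (SD, n = 3 each). Calcr and the ligand genes Adm and Calca stayed under 0.2 FPKM in every library. FPKM are fragments per transcript length and per mapped fragments of the library, so levels of different genes can be set side by side per length. In bulk samples, fewer cells of a type and less RNA per cell cannot be told apart.

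Libraries differed in depth, from about 17.8 to 68.1 M fragments (M, 1000000) as estimated from the step between low values. Gab2 itself measured 2.43 to 3.33 FPKM in WT and 0.123 to 0.203 FPKM in NULL. Of the 9916 genes averaging 1 FPKM or more, 65.3% reached an adjusted p of 0.05 or less with limma, so a call by itself is common here. Higher calls made up 23.3% and lower calls 42% of the tested genes, and 26% had every NULL value above every WT value. The part of the calls that was lower depended on scaling, being 64.3% as deposited, 56.0% with median-of-ratios factors, 53.7% with quantile normalization and 32.7% with a common total. In the same order the tested genes had median log2 changes of -0.13, -0.043, -0.030 and 0.12. With the common total, limma p-values hardly followed a gene's own spread, so calls kept, gained or lost there are descriptions only.

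The sequences before the start sites of the 3 members that were higher in NULL are shown because they are the stretches nearest to the changed transcripts. They come from a set of RefSeq (GRCm38.p6) promoter windows that held 6 of the 7 members, without Ramp2. Each is cut at the outermost annotated start of its gene. The printed stretches are chr11:6658283-6658505 (plus strand) for Ramp3, chr1:91179572-91179821 (plus strand) for Ramp1 and chr2:84425412-84425516 (minus strand) for Calcrl. Capitals mark motif matches, with overlapping letters joined.
Ramp3: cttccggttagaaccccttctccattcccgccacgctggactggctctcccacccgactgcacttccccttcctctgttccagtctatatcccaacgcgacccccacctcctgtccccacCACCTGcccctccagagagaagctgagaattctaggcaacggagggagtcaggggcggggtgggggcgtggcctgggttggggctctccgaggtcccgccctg
Ramp1: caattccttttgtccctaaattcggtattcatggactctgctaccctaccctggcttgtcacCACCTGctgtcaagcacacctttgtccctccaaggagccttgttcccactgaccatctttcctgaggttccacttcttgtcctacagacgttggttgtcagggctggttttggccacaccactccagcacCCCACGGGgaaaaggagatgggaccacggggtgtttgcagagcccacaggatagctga
Calcrl: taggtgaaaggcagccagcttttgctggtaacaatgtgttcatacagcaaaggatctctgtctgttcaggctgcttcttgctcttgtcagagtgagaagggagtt

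Searched on both strands of the full windows of 250 bases were TGACGTCA (the cyclic AMP response element), GTAAACA (FOXO), TTCNNNGAA (STAT), CCCNNGGG (EBF1), CAGCTG and CAGGTG (E-boxes) and AGGAAGT (ETS). For Ramp3 and Calcrl the searched window runs past the outermost annotated start into the gene, for Calcrl over most of its length. The windows of Ramp3 and Ramp1 each held CAGGTG on the reverse strand, a motif in 17.2% of 32817 promoter windows, and that of Ramp1 also held CCCNNGGG, found in 11.8%. The Calcrl window held none of the motifs. The cyclic AMP response element, present in 1.55% of all windows, was in none of these 3. Over the full 250 bases, which for Ramp3 and Calcrl run beyond the printed stretches, GC made up 65.2% for Ramp3 (13 CpG), 54.0% for Ramp1 (4 CpG) and 48.4% for Calcrl (3 CpG), against medians of 52.4% and 6 CpG over all windows. A match describes letters in a window and no binding was measured.

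Ramp3, whose product makes an adrenomedullin receptor with CALCRL, read 0.173 FPKM in WT A, 0.0525 in WT B and 0.0837 in WT C. In NULL A, B and C it read 15.5, 15.8 and 15.97 FPKM. The groups lay far apart, and the 3 NULL libraries differed little from each other (15.7 ± 0.258 FPKM, SD, n = 3) against 0.103 ± 0.0626 FPKM in WT. On the log2(FPKM + 1) scale the difference was 3.92 (SE 0.071), the 7th largest increase among the tested genes. The gene (ENSMUSG00000041046.7, protein coding) is on chromosome 11 of GRCm38, plus strand, between 6658521 and 6677475. In number of fragments, the WT values correspond to roughly 11.0, 1.1 and 2.2 and the NULL values to roughly 1245, 431 and 749, an estimate that carries no interval. Ramp3 ranked between 11470 and 12604 of all symbols in the WT libraries, rank 1 being the highest level, and between 3058 and 3304 in NULL. The only annotated gene that overlaps it, the pseudogene Gm11978 on the opposite strand, was listed at 0 in all WT libraries and had a mean of 0.0126 FPKM in NULL.

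Ramp1, the subunit that gives CALCRL its affinity for calcitonin gene-related peptide, rose in NULL. It read 0.949, 0.856 and 1.14 FPKM in the WT libraries, against 2.13, 1.85 and 2.06 FPKM in the NULL ones. Every NULL value was above every WT value, and the means were 0.982 ± 0.145 and 2.02 ± 0.148 FPKM (SD, n = 3), a ratio of 2.05. The log2 change was 0.61 (SE 0.087, limma adjusted p = 0.000554), and 9.87% of the tested genes had a change at least as high. Ramp1 (ENSMUSG00000034353.14) is on chromosome 1, plus strand, between 91179822 and 91225196. Its WT mean was just under the 1 FPKM filter, so its place among the tested genes came through the NULL libraries. With a filter of 0.1 FPKM, which its WT libraries pass on their own, the adjusted p in limma was 0.000384.

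Ramp2, the other adrenomedullin-directing subunit and the RAMP of blood and lymph vessels, was lower in NULL. The WT libraries read 0.882, 0.789 and 0.944 FPKM, and NULL A, B and C read 0.123, 0 and 0.326 FPKM. The NULL values were uneven, with B listed at 0 and C the highest, but all lay below the lowest WT value. In number of fragments, the WT values correspond to roughly 63.1, 18.6 and 28.2 and the NULL values to roughly 11.1, 0 and 17.2. WT B and NULL C thus rest on similar small counts from libraries of different depth (about 17.8 and 39.7 M fragments). The NULL mean was 0.172 of the WT mean (0.150 ± 0.165 against 0.872 ± 0.0776 FPKM, SD, n = 3). The mean over the 6 libraries, 0.511 FPKM, was under the filter, so Ramp2 had no row in the main limma analysis. An exact two-sided permutation test gave p = 0.1, the smallest that 3 against 3 allows. With the filter at 0.1 FPKM the limma log2 change was -0.71 (SE 0.102, adjusted p = 0.000609), in an analysis that called 36% of its 12277 genes lower. In the same 12277 genes 39.5% had all NULL values below all WT values. Among 2361 symbols with a mean from 0.1 to under 1 FPKM, 49 (2.08%) had a NULL to WT ratio as low as that of Ramp2.

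Ramp2 (ENSMUSG00000001240.13) is on chromosome 11, plus strand, between 101246028 and 101259546 in GENCODE, where its last 5840 bp overlap Vps25 on the same strand. Reads there cannot be assigned with certainty. Vps25, a subunit of the endosomal sorting machinery, was far more abundant and went from 38.9 ± 2.998 to 27.5 ± 0.480 FPKM, a change not called after quantile normalization or rescaling to a common total. The RefSeq model of Ramp2, from 101246334 to 101248250, overlaps no other gene, and the sources used here do not give the annotation the authors used.

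Calcrl, which encodes the shared receptor, rose in NULL. WT A, B and C had 9.20, 8.09 and 7.42 FPKM, and NULL A, B and C had 13.0, 14.3 and 14.8 FPKM, without overlap. The ratio of the means was 1.70, the log2 change 0.70 (SE 0.089, limma adjusted p = 0.000304), and 7.99% of tested genes had a change at least as high. Calcrl (ENSMUSG00000059588.13) is on chromosome 2, minus strand, between 84330626 and 84425411. It was the most abundant member in WT, ranking between 5156 and 5911, while in NULL its level per length was slightly below that of Ramp3 in each library.

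**Figure D1:**
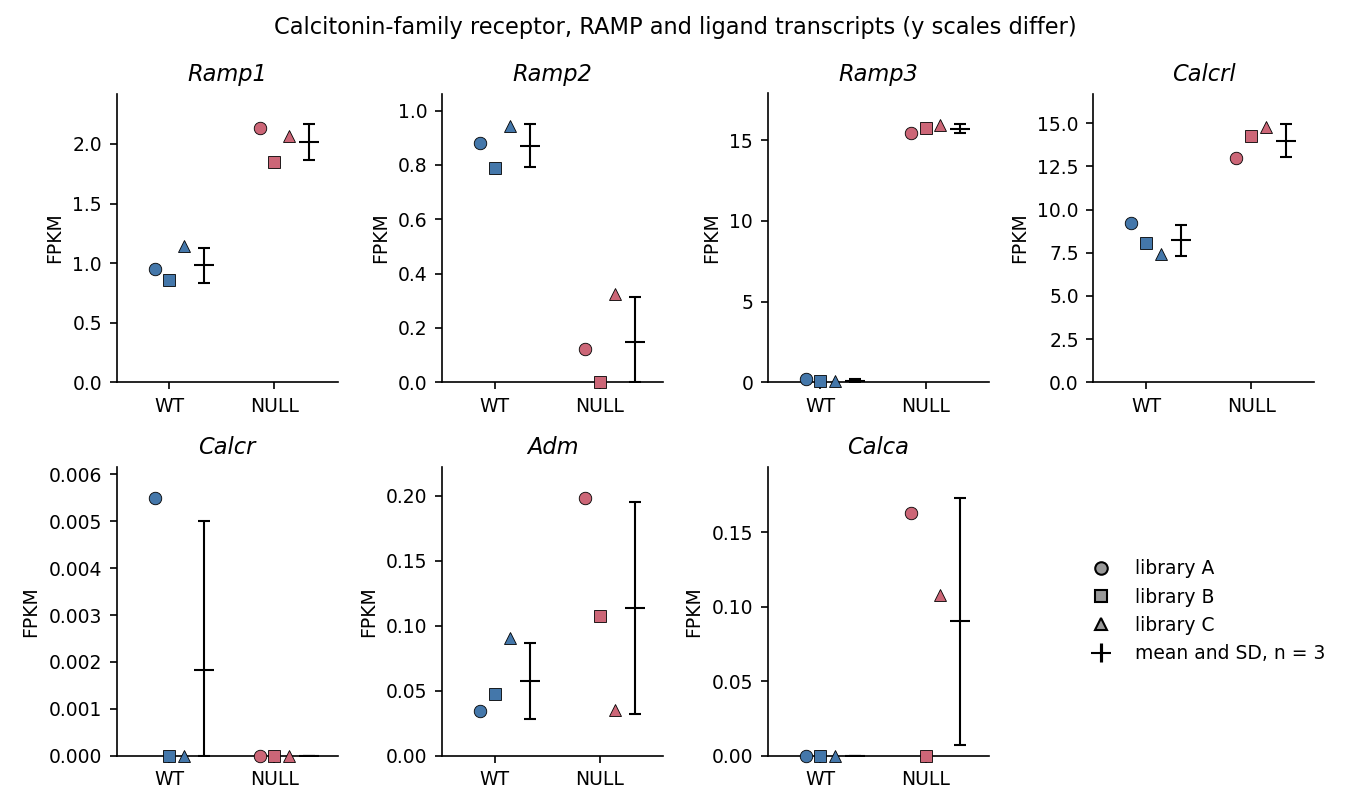
FPKM of the 7 members in each library (circles A, squares B, triangles C; WT blue, NULL red), with the group mean and SD (n = 3, lower bars drawn no further than 0) beside the points and a separate y scale from 0 for each gene. Ramp3, Ramp1 and Calcrl are higher and Ramp2 is lower in every NULL library, while Calcr, Adm and Calca overlap between the groups.

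Calcr, the calcitonin receptor, was listed at 0.00550 FPKM in WT A and at 0 in the other 5 libraries, and its groups overlapped. Adm read 0.0345, 0.0478 and 0.0907 FPKM in WT and 0.198, 0.108 and 0.0350 FPKM in NULL, so that NULL C fell among the WT values (exact two-sided permutation p = 0.3). Calca was listed at 0 in all WT libraries and in NULL B, and at 0.163 and 0.108 FPKM in NULL A and C (exact two-sided permutation p = 0.4). At these levels, roughly 16.8 fragments or fewer in any library, no difference was detected. Calcr holds 2 microRNA genes on its own strand, and Adm is covered by an antisense gene, Gm28863. In all, 3 of the 7 members passed the filter, Ramp1, Ramp3 and Calcrl. A member whose level fell from near the filter, as Ramp2 did, could not be among them, so their shared direction is not read as a result.

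Ratios within a library do not change when the whole library is multiplied by a single factor, though quantile normalization can change them. In WT A, B and C, Ramp1 made up 47.3%, 50.4% and 52.6% of the summed RAMP FPKM, Ramp2 44.0%, 46.5% and 43.5%, and Ramp3 8.64%, 3.10% and 3.86%. In NULL A, B and C, Ramp3 made up 87.3%, 89.5% and 86.98%, Ramp1 12.0%, 10.5% and 11.2%, and Ramp2 0.694%, 0 and 1.78%. The lower Ramp1 share in NULL thus went with a higher Ramp1 level, since the summed RAMP level went from 1.96 ± 0.239 to 17.9 ± 0.402 FPKM.

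Set against the receptor, Ramp3 measured 0.0188, 0.00650 and 0.0113 of the Calcrl level in WT and 1.19, 1.11 and 1.08 in NULL. All 3 RAMPs together came to 0.240 ± 0.0454 of the Calcrl level in WT and 1.28 ± 0.0736 in NULL (SD, n = 3). In WT the RAMP transcripts were therefore fewer per length than those of the receptor, and in NULL they were more. Ramp1 per Calcrl was 0.121 ± 0.0285 in WT and 0.145 ± 0.0180 in NULL, with overlapping values (exact two-sided permutation p = 0.3). No difference between the groups was resolved in that ratio, although both genes rose. Ramp2 per Ramp1 was 0.930, 0.923 and 0.827 in WT and 0.0576, 0 and 0.158 in NULL, without overlap (exact two-sided permutation p = 0.1, the smallest possible). The sum of Ramp1 and Ramp2, which leaves Ramp3 out, came to 1.85 ± 0.220 FPKM (WT) and 2.17 ± 0.282 FPKM (NULL) and overlapped (exact two-sided permutation p = 0.2).

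**Figure D2:**
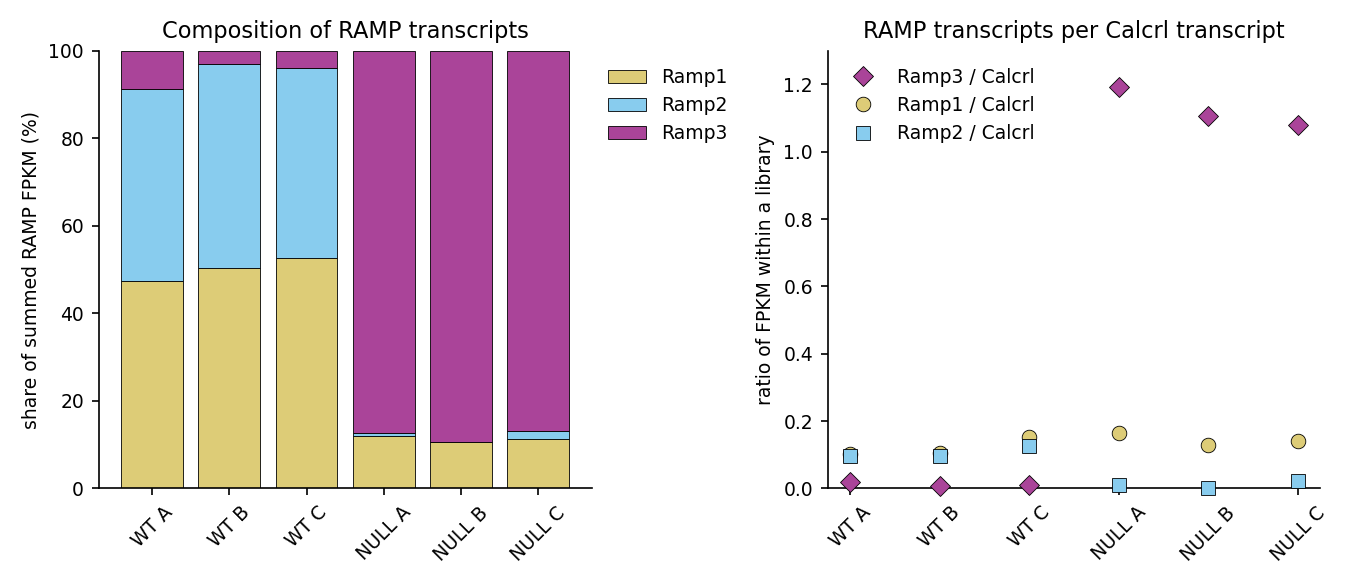
Left, share of each RAMP gene in the summed RAMP FPKM of a library (percent); right, FPKM of each RAMP gene divided by that of Calcrl in the same library. WT libraries hold Ramp1 and Ramp2 in near-equal shares, NULL libraries hold 86.98% to 89.5% Ramp3, and Ramp1 per Calcrl overlaps between the groups.

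On chromosome 11, Ramp3 has 5 neighbours on each side that have a row in the table, and only 2 in all passed the filter. Those 2 alone could be called, and 0 were called higher, where 23.3% of all tested genes were. Tbrg4, a mitochondrial RNA-binding protein gene 32.5 kb away, went from 15.0 ± 0.703 to 9.58 ± 0.962 FPKM (limma log2 change -0.60, SE 0.081, adjusted p = 0.000410), a call lost after rescaling to a common total. The small nucleolar RNA gene Snora5c read 0 in 3 libraries and was not called (limma adjusted p = 0.542), except after rescaling to a common total. That fit gave it a limma adjusted p of 2.50e-19 despite its spread, so the call is not read as a result. Nacad, 52.5 kb away and under the filter, averaged 0.267 ± 0.0213 FPKM (WT) and 0.916 ± 0.0101 FPKM (NULL) without overlap. Wap, Gm11978, Gm11981, Adcy1, Gm11985, Igfbp1 and Igfbp3 had group means under 0.05 FPKM in both groups. Adcy1, at trace levels (means of 0.000375 and 0.00380 FPKM), was higher in NULL without overlap. Over all tested genes 26% had every NULL value above every WT value.

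**Figure D3:**
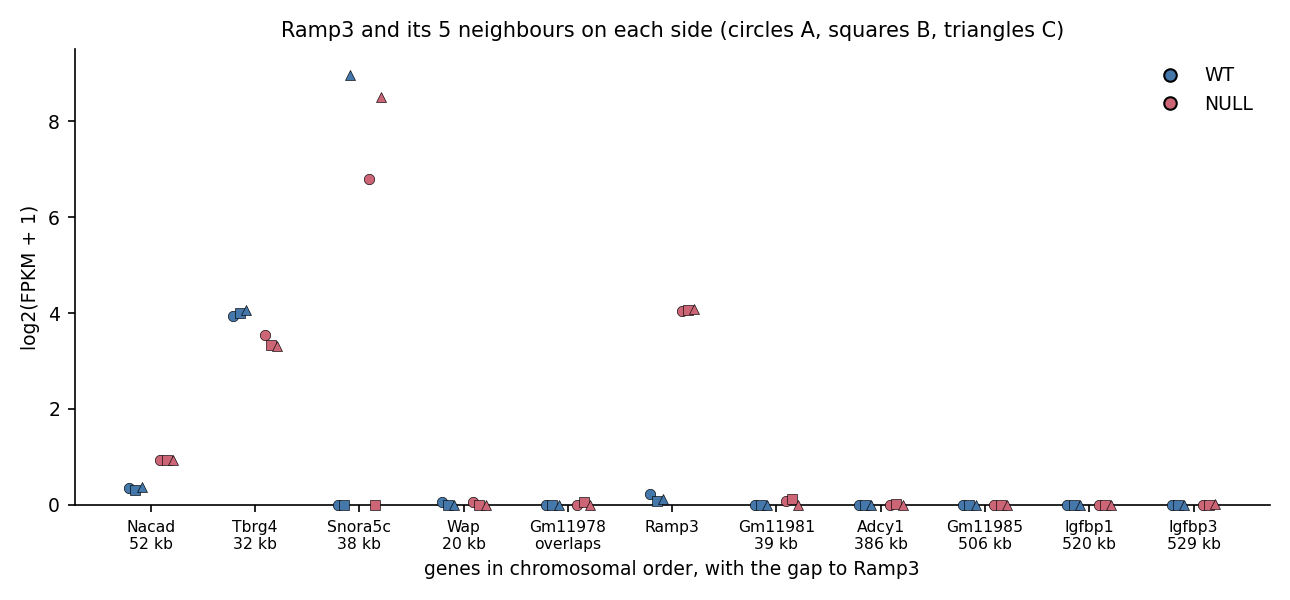
Level as log2(FPKM + 1) in each library of Ramp3 and of the 5 annotated genes on each side, in chromosomal order with the gap to Ramp3 (WT blue, NULL red). Ramp3 stands between neighbours that are near 0 in both groups, and Tbrg4 is lower in the 3 NULL libraries.

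Around Calcrl, 1 of 6 tested neighbours was called higher and 4 lower, where 42% of all tested genes were called lower. The higher one was Tfpi, the tissue factor pathway inhibitor gene, which lies 7.44 kb from Calcrl and read 0.452, 1.55 and 0.0155 FPKM in WT and 4.37, 4.02 and 4.71 FPKM in NULL. Its WT mean was under 1 FPKM, so it passed the filter through the NULL libraries and its call is not read as a result. Around Ramp1, 0 of 4 tested neighbours were higher and 3 lower, and around Ramp2, 1 was higher and 2 lower of 4. Of the lower calls around these 3 genes only Ctnnd1, near Calcrl, remained after rescaling to a common total. Tfpi and the others around Calcrl, Ramp1 and Ramp2 were singled out here after their values were seen.

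By Euclidean distance between centred log2(FPKM + 1) profiles over the 6 libraries, the tested genes most like Ramp3 were Gng4 (distance 0.876), Ly6f (0.919), Adprhl1 (1.17), Tmem59l (1.35), Grtp1 (1.37) and Htra3 (1.38). Gng4, a G-protein gamma subunit gene, read 2.24 to 3.57 FPKM in WT and 32.2 to 41.5 FPKM in NULL. Htra3, a secreted serine protease gene, read 0 to 0.169 FPKM in WT and 6.64 to 6.95 FPKM in NULL. The list was picked for its likeness, so these values are a description.

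Among the other genes of the family, Calcb and Adm2, which encode a second form of calcitonin gene-related peptide and intermedin, were listed at 0 in every library, and Iapp, the amylin gene, was above 0 only in NULL B and C (0.166 and 0.0490 FPKM). Crcp, named for a receptor component and also a subunit of RNA polymerase III, fell from 17.97 ± 1.44 to 13.1 ± 0.902 FPKM (log2 change -0.42, SE 0.081, limma adjusted p = 0.00251), a call lost after rescaling to a common total. Of 8 genes for peptide processing and breakdown 1 was tested and not called, the endothelin-converting enzyme Ece1. Pam, which amidates calcitonin-family peptides, read 0.805, 0.655 and 0.866 FPKM in WT and 0.234, 0.161 and 0.181 FPKM in NULL. Cpe, a carboxypeptidase of peptide hormone maturation, read 0.132, 0.0858 and 0.0683 FPKM in WT and 1.08, 1.13 and 1.02 FPKM in NULL. Neither gene passed the filter, and the groups of each did not overlap. Furin, a processing protease gene of the same list and also under the filter, averaged 0.529 (WT) and 0.944 FPKM (NULL) without overlap. Of all genes averaging 0.1 FPKM or more, 39.5% had every NULL value below every WT value. Of those averaging 1 FPKM or more, 26% had every NULL value above every WT value.

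Of 14 other receptors reported to pair with RAMPs, 6 were listed at 0 in every library and 1 was tested. That gene, Vipr2, a receptor for vasoactive intestinal peptide, averaged 0.507 ± 0.207 FPKM (WT) and 2.06 ± 0.259 FPKM (NULL). It passed the filter through the NULL libraries alone, so its call is not read as a result. Its relative Vipr1 was under the filter and read 0.552, 0.522 and 0.683 FPKM in WT against 0.122, 0.259 and 0.240 FPKM in NULL. Vipr2 was thus higher and Vipr1 lower in every NULL library, and neither had overlapping groups. Such separation is common here, with 26% of genes averaging 1 FPKM or more higher and 39.5% of those averaging 0.1 FPKM or more lower.

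Downstream of these receptors, the stimulatory G protein, adenylyl cyclases and protein kinase A were mixed, with 1 of 9 tested genes higher, 3 lower and 5 not called (median log2 change -0.17, against -0.13 for all tested genes). Over all tested genes 23.3% were called higher and 42% lower. Prkar2a, a regulatory subunit of the kinase, fell from 3.22 ± 0.173 to 1.19 ± 0.0404 FPKM. Gnas, which encodes the stimulatory G-protein alpha subunit, went from 165 ± 16.6 to 116 ± 6.04 FPKM, a call lost with quantile normalization and with a common total. Under the rescalings the counts were 3 higher and 2 lower (median-of-ratios), 4 and 3 (quantile) and 0 and 1 (common total), so no direction of the group held.

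Genes for phosphodiesterases, which break down cyclic nucleotides, were higher in 5 of 7 tested cases and lower in 1 (median 0.42). For this list and the next, the shares over all tested genes were 23.3% higher and 42% lower (median -0.13). Pde1b rose from 7.16 ± 0.944 to 19.9 ± 1.16 FPKM, Pde4b from 8.26 ± 1.41 to 17.0 ± 0.868 FPKM and Pde8a from 26.1 ± 2.97 to 36.7 ± 1.38 FPKM. The 5 higher calls were as many under each rescaling, while the lower call, Pde7a, was lost after rescaling to a common total. The CREB family and its co-activators had 4 of 8 higher and 1 lower (median 0.14), with Crebbp, Crtc1 and Ep300 rising by log2 changes of 0.57, 0.55 and 0.34. The lower gene, Atf1, lost its call under quantile normalization and with a common total. Creb1 itself was not called at 15.7 ± 0.903 and 14.4 ± 1.20 FPKM.

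Of 8 tested genes that respond to cyclic AMP, 5 were higher and 0 lower (median 0.56), under the deposited scale and under each rescaling. Nr4a1, a nuclear receptor gene induced by many stimuli, rose from 0.457 ± 0.101 to 4.23 ± 0.391 FPKM and Rgs2, a regulator of G-protein signalling, from 4.16 ± 1.27 to 11.2 ± 0.496 FPKM. Pde4b and Pde4d, already counted with the phosphodiesterases, are among the 5. Per1, Crem and Dusp1 were not called. Nr4a1 and Junb had WT means under 1 FPKM and passed the filter through the NULL libraries, where a gene that fell from the same level could not. With the filter at 0.1 FPKM, limma called 8 of 14 response genes higher and 2 lower (median 0.25). That fit called 2961 of all its 12277 genes higher and 4425 lower. Nr4a2, a relative of Nr4a1, read 0.706, 0.640 and 0.712 FPKM in WT against 0.321, 0.496 and 0.434 FPKM in NULL. Areg, the amphiregulin gene, averaged 0.191 ± 0.0815 FPKM (WT) and 0.0360 ± 0.0100 FPKM (NULL), and both genes were lower in NULL without overlap. So were 39.5% of the 12277 genes.

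Receptor desensitisation and trafficking genes had 2 of 8 higher and 3 lower (median -0.13), near the 23.3%, 42% and median of -0.13 of all tested genes. The 2 higher calls held under each rescaling, but the lower calls numbered 1, 2 and 0 under median-of-ratios, quantile and common-total scaling. The receptor kinase genes Adrbk1 and Grk5 rose by log2 changes of 0.44 and 0.36. Nsf, a trafficking ATPase reported to bind the tail of RAMP3, fell from 14.8 ± 0.482 to 8.82 ± 0.730 FPKM, a call lost after rescaling to a common total. Slc9a3r1, which encodes the other reported RAMP3 partner NHERF1, went from 28.3 ± 2.19 to 24.1 ± 2.04 FPKM (limma adjusted p = 0.0491), a call lost under all 3 rescalings, 2 of which turned its sign.

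**Figure D4:**
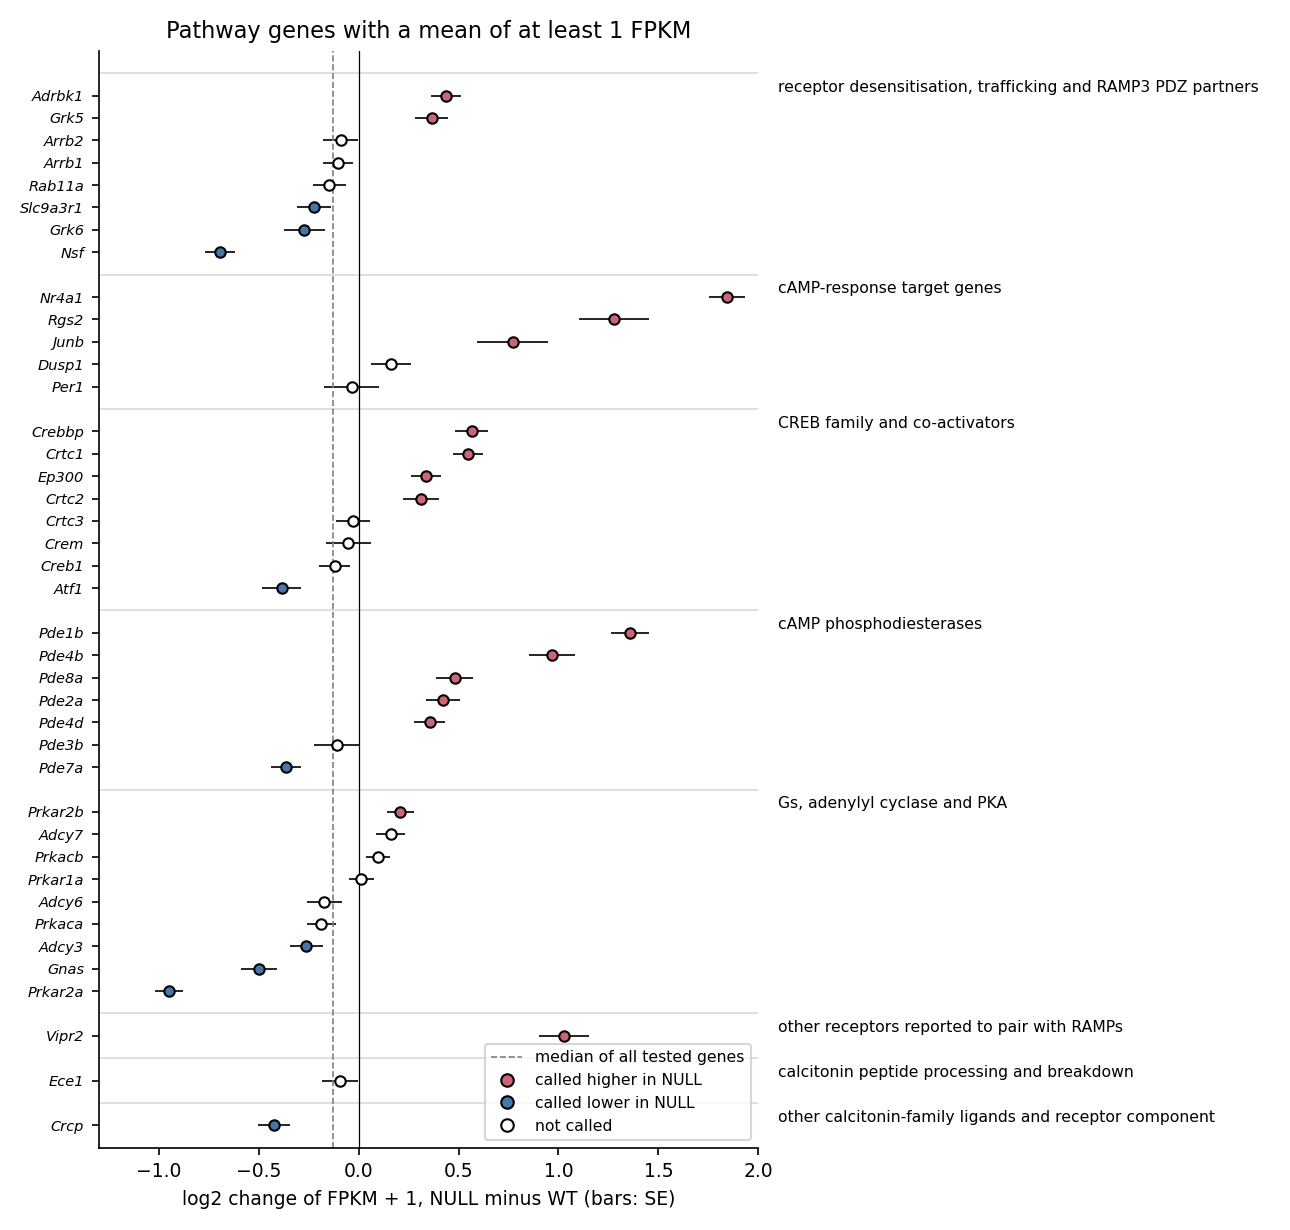
Log2 change of FPKM + 1 (NULL minus WT, bars are SE of the limma analysis) of the tested pathway genes by list, each gene drawn once; red points were called higher, blue lower and white not called, and the dashed line is the median of all tested genes. Tested phosphodiesterase and cyclic AMP response genes lie mostly to the right of 0, and the G protein and protein kinase A genes on both sides.

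Markers of the cell types that usually carry these receptors were looked at beside the members. Of 14 endothelial markers 2 were tested and both were higher, Pecam1 (11.1 ± 0.668 to 24.9 ± 0.467 FPKM) and Eng (2.74 ± 0.374 to 9.30 ± 0.803 FPKM), which other blood cells also express. For these and the markers below, 23.3% of all tested genes were called higher and 26% had every NULL value above every WT value. The summed list, nearly all of it Pecam1 and Eng, ran from 13.2 to 15.1 FPKM in WT and from 34.0 to 36.0 FPKM in NULL. Tie1, Sox17 and Sox18 were listed at 0 in every library, and Cdh5, Kdr and Tek did not exceed 0.0961 FPKM. Kdr (means of 0.00344 and 0.0635 FPKM), Vwf (0 and 0.0423 FPKM) and Emcn (0 and 0.116 FPKM), all under the filter, were higher in every NULL library than in any WT library. The share of all genes at such low levels that do so was not computed. Tek (0.0128 and 0.00321 FPKM) and Esam (0.0644 and 0.0360 FPKM) had lower NULL means, with overlap. Plvap was near level (0.171 and 0.178 FPKM). Of 8 osteoclast markers Ocstamp and Mmp9 were at 0. Acp5, the 1 tested, rose from 2.35 ± 0.347 to 3.85 ± 0.453 FPKM (limma adjusted p = 0.00269). Under the filter, Ctsk (means of 0.0158 and 0.158 FPKM), Atp6v0d2 (0.00130 and 0.149 FPKM) and Tnfrsf11a (0.212 and 0.322 FPKM) were higher in NULL without overlap. For these levels too, the share of all genes that do so was not computed. Oscar had a lower NULL mean (0.0311 and 0.0231 FPKM), with overlap. The summed osteoclast list, mostly Acp5, ran from 2.38 to 2.93 FPKM in WT and from 4.07 to 4.85 FPKM in NULL.

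Among 11 monocyte, macrophage and dendritic markers, Lyz2 (0.413 ± 0.154 and 2.85 ± 0.659 FPKM) and Itgam (0.0507 ± 0.0224 and 4.56 ± 0.0250 FPKM) were tested and higher. Both passed the filter through the NULL libraries, which fixed their direction. The summed list, in NULL mostly Itgam and Lyz2, ran from 1.23 to 1.89 FPKM in WT and from 8.47 to 9.54 FPKM in NULL, with Cd14 at 0 and Csf1r at most 0.144 FPKM. Cd68 (means of 0.897 and 0.888 FPKM), Flt3 (0.155 and 0.161 FPKM), Xcr1 (0.0782 and 0.0847 FPKM) and Fcgr1 (0.0135 and 0.0137 FPKM) were near level. Itgax (0 and 0.150 FPKM) and Siglech (0.00164 and 0.0645 FPKM) were higher in NULL without overlap. Csf1r and Emr1 had higher NULL means, with overlap. The T and NK markers summed to at most 0.597 FPKM and the neutrophil markers to at most 0.186 FPKM in any library. Of 12 stromal, bone and smooth muscle markers 6 were at 0 and 1, Acta2, was tested and higher (sums, mostly Acta2, of 1.43 to 1.98 FPKM in WT and 3.13 to 3.69 FPKM in NULL). Of 9 erythroid and megakaryocyte markers only Tfrc, which dividing cells of many kinds express, was tested, and it was lower (sums, nearly all Tfrc, of 261 to 351 and of 159 to 184 FPKM).

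B-lineage markers dominated all libraries, with sums of 3075 to 3281 FPKM in WT and 4162 to 4228 FPKM in NULL. In NULL 9 of 12 were called higher, where 23.3% of all tested genes were called higher and 42% lower. Pax5 and Cd24a were among the others and were not called. Dntt, the terminal transferase of early B cells, went from 33.4 ± 16.6 to 161 ± 5.003 FPKM. These marker levels moved between the same groups as Ramp3, Ramp1 and Calcrl, and their part in those differences was not tested.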

How the data were processed

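RNA of 6 mouse bone marrow libraries was measured by poly(A)-selected stranded paired-end sequencing, per the labels' protocols. The authors deposited FPKM. The submitters' processing notes name Bowtie, Cufflinks, mm10 and GRCm38. Not given in the sources used here were the annotation, filters, strand setting and any scaling of the libraries. The table held 23848 rows and differed from the library tables in 0 values. Of 256 repeated symbols only the row of highest mean was used, and no member was among them. Groups and letters came from the sample titles.

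In R 4.3.3, limma 3.58.1 was run on log2(FPKM + 1) of genes averaging 1 FPKM or more, with a variance trend, two-sided p-values, Benjamini-Hochberg adjustment over all tested genes and a threshold of 0.05. The scale understates changes of low genes. A count model was not used, since FPKM are no counts, and the steps were tested on simulated data. Exact permutation tests of FPKM used scipy 1.17.1. Median-of-ratios factors used genes above 0 in all libraries. The commonest step of low FPKM times transcript length less 150 bp gave the estimate of depth, which supports no interval.

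Positions are from GENCODE vM21 (GRCm38) and promoter sequences from RefSeq (GRCm38.p6). Protein sequences were not used here. The members, lists and motifs were chosen with earlier results of these data known. Named are all members, called list genes (up to 3 of smallest p per list and direction, of which the text gives examples), Ramp3's neighbours, the 6 genes nearest in profile and Gab2. Alternatives were other pseudocounts, filters, rescalings, moderations, a block on the letters, summed repeats and leaving out each library. The result of 1 marker gene is not reported here.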

Additional observations from a re-analysis of the deposited data

How the results depend on the processing

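Ramp1 and Calcrl kept their direction and their call in all 17 alternatives each, with log2 changes of 0.48 to 0.97 and 0.64 to 0.96 and limma adjusted p-values of 5.23e-05 to 0.00352 and 0.000110 to 0.00214. The smallest for Ramp1 came from the common-total fit, although its SE there was larger than in the main analysis (0.170 against 0.087). Ramp2 was lower in all 16 alternatives that gave a value. It had no value of its own under quantile normalization, which covered tested genes only. Its change was -2.19 with a pseudocount of 0.1 and -1.11 with 0.5, and with no filter the limma adjusted p was 0.00287. Ramp3 differed by 6.33, 4.75 and 4.09 with a pseudocount of 0.1, of 0.5 and with a common total. Leaving out single libraries gave 0.56 to 0.66 for Ramp1, -0.82 to -0.62 for Ramp2, 3.89 to 3.97 for Ramp3 and 0.64 to 0.78 for Calcrl, and 5825 to 6488 called genes. The count of called genes was 6479 in the main analysis and 3054 with a common total, and the cause was not tested.

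Letters A, B and C stand in both groups. Deviations from the group means correlated between libraries of the same letter at 0.073 (A), 0.355 (B) and 0.133 (C). The letters were not taken as pairs, because no label says that a letter marks a shared animal, litter or day. Each of the 6 libraries correlated best with its own letter, a hint from the data only. With the replicate block 5844 genes were called, and the limma adjusted p was 0.00212 for Ramp1 and 0.00190 for Calcrl. The values of Calcr, Adm and Calca rest on few fragments, and so do those of Ramp2 in NULL and in WT B.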
